A study of Mus musculus with 72 samples.

Results

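The sites described here are distal binding sites of Brd3 that carry no p300 peak in wild-type mouse embryonic fibroblasts (MEFs). A site is a Brd3 peak of WT replicate 1 that overlaps a Brd3 peak of WT replicate 2 by 1 bp or more, lies more than 1000 bp from every protein-coding transcript start of GENCODE vM1, and overlaps no p300 peak of either WT replicate. The rule found 8866 such sites among 22795 Brd3 sites shared by the WT replicates, or 38.9%, out of 31404 Brd3 peaks in WT replicate 1. The other shared Brd3 sites were 2630 distal sites with a WT p300 peak and 11299 sites within 1000 bp of a start, called promoter sites below.

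Brd3 belongs to the BET family, whose bromodomains bind acetylated lysines on histone tails, and is therefore called a reader of acetylation. p300 is an acetyltransferase, a writer, that acetylates histone H3 at lysine 27 among other residues, and H3K27ac marks active promoters and enhancers. CEBPB is a transcription factor with a basic leucine zipper that binds DNA in a sequence-specific manner, and HMGN1 and HMGN2 are small proteins that bind nucleosomes without sequence specificity.

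The MEFs came from Hmgn1+/+n2+/+ mice (WT) and Hmgn1-/- n2-/- mice (DKO) of strain C57BL/6, and each antibody was used on 2 replicates per genotype. Chromatin was immunoprecipitated with antibodies to Brd3, p300, H3K27ac, CEBPB, H3K27me3 and histone H1, and 5 other factors each were studied in ES cells and in B cells. The deposited lists give the position of each narrow peak, its fold enrichment (the reads stacked at the summit over the local background) and its −log10 p and −log10 q. The age of the embryos and whether DKO cells came from 1 or several embryos are not given in the labels. Because each replicate is one list of peaks, p-values measure the spread between 2 lists per genotype, and an exact permutation of 2 against 2 cannot give a p below 0.33.

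All 12 fibroblast markers examined had an H3K27ac peak within 1000 bp of a start in each of the 4 MEF libraries, and none of 6 pluripotency, 6 B cell and 4 epithelial markers did. Of 4 endothelial markers, 1 had a peak in DKO replicate 1 only, and 2 of 4 macrophage markers had a peak in every library. At the deleted genes, H3K27ac peaks within Hmgn2 numbered 3 in either WT replicate and 0 in either DKO replicate, and those within Hmgn1 2 and 2 against 4 and 5, so that Hmgn1 gives no check of its deletion by this mark. Depth could be read from the lists where reads at a summit were solved as whole numbers, since the lowest background then measures reads per position. For Brd3 it was 1.75 and 1.89 (WT) and 1.24 and 1.54 (DKO), and for H3K27ac 1.64 and 1.44 (WT) and 1.77 and 1.87 (DKO). For CEBPB it could not be solved, so that depth is unknown.

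The reference sequence around the summits of strong members that kept or lost a Brd3 peak in DKO cells is printed as an example of the DNA at these sites. Each window is 101 bp of mm9, plus strand, centred on the Brd3 summit of WT replicate 1, with CG dinucleotides in capitals. The first group holds the 3 members with the highest mean WT −log10 q among those with a Brd3 peak in both DKO libraries.
Myo1g, chr11:6428585-6428685: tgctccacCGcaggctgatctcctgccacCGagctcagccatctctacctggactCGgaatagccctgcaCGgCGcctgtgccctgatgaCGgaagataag
Zfp518a, chr19:40969507-40969607: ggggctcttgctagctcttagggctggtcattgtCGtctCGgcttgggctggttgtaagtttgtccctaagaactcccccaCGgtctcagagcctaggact
Snhg11, chr2:158187064-158187164: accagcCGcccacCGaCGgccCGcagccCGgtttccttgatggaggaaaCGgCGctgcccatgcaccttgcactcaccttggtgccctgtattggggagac
The second group holds the 3 members with the highest −log10 q in WT replicate 1 among those with a Brd3 peak in neither DKO library, a ranking chosen after the values were seen for the reason given below.
Wnt10a, chr1:74854822-74854922: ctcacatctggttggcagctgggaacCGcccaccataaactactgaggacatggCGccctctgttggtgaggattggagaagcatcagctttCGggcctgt
Gm6404, chr13:116509195-116509295: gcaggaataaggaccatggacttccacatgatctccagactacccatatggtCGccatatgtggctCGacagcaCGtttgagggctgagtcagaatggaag
1700016C15Rik, chr1:179553475-179553575: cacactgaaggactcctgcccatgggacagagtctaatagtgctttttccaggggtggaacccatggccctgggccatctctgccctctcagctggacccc
The windows near Myo1g, Zfp518a and Snhg11 hold 6, 3 and 7 CG dinucleotides, and those near Wnt10a, Gm6404 and 1700016C15Rik hold 3, 3 and 0. The other 2 kept members named below, near Gm9953 and Spen, hold 5 and 7. Of the other lost members named below, those near Klf4, in Zc3h4, near Spen and in Cyth3 hold 5, 4, 2 and 1. Those in Dnm3, near Gm10068 and near Tubd1 hold 0. The ranges of the groups overlap, and no difference is read from so few windows. The composition over all members is given next. Sites are named by the protein-coding gene with the nearest start, which need not be the gene they act on.

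Over all members, windows of 100 bp to either side of the summit had a median GC content of 49.3% and a mean of 3.87 CG dinucleotides. Distal sites with p300 had 48.3% and 2.66, and promoter sites 61.7% and 13.4. Positions 5000 bp beside the members had 45.3% and 2.25. Within the members, those with a Brd3 peak in both DKO libraries had a median GC content of 53.7% and 6.20 CG dinucleotides on average, and those with a Brd3 peak in neither had 48.3% and 3.34. At least 10 CG dinucleotides were found in 22.4% of the windows of the former and in 5.68% of those of the latter. These are descriptions, without a test.

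The members were narrower and weaker Brd3 peaks than the other sites. Their median width was 339 bp, against 585.5 bp at distal sites with p300 and 418 bp at promoter sites. Their median fold enrichment was 4.98 in WT replicate 1 and 5.19 in WT replicate 2, against 5.88 and 6.12 at distal sites with p300 and 6.43 and 6.51 at promoter sites. The gap from a member to the nearest protein-coding start had a median of 26045 bp, and 33.9% of the members lay more than 50 kb away, against 46.2% of the distal sites with p300. By the position of the summit among protein-coding genes, 4858 members (54.8%) were intergenic, 3650 (41.2%) lay in introns and 358 (4.04%) in exons. The nearest WT p300 peak lay at a median distance of 6340 bp, and 2747 members had one within 1000 bp, which the rule allows.

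The rule counted protein-coding transcripts only. Another annotated start, of a lincRNA, antisense or small RNA, a pseudogene or a non-coding transcript of a coding gene, lay within 1000 bp of 673 members (7.59%). It did so for 14.3% of the members with a Brd3 peak in both DKO libraries and 6.27% of those with a peak in neither. Of the 5 strongest members kept in both DKO libraries, those near Myo1g, Snhg11 and Spen were among these 673, and of the 5 ranked highest among those with no DKO peak, the one in Dnm3 was. Members near another start were also stronger in WT cells, with a median WT −log10 q of 9.63 against 7.98 at the others, and their shares are not read apart from this.

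The values on either side of the rule's limits are given as a description. The 286 members closest to a start, just beyond the limit of 1000 bp, had a Brd3 peak in DKO replicates 1 and 2 in 17.8% and 25.5% of cases, and the 440 shared Brd3 sites without p300 that lay just within 1000 bp of a start, and so outside the rule, in 17.5% and 28.6%. The 2747 members with a p300 peak within 1000 bp but not overlapping had one in 16.7% and 23.2%, and the 1094 distal sites overlapped by p300 in a single WT library in 28.9% and 35.6%.

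Windows of 100 bp to either side of the summit were read for short motifs, in both orientations. TGANTCA, the core bound by AP-1 (FOS and JUN dimers), was present at 7.23% of the members, 11.7% of the distal sites with p300, 2.64% of the promoter sites and 6.51% of positions 5000 bp beside the members. ACATTCC, bound by TEAD factors, was present at 3.54%, 5.97%, 1.74% and 2.83% of the same groups in that order. TTGCNNAA, the core of the CEBP motif, was present at 7.53% of the members and at 8.29% of the positions beside them. GGGCGGG, bound by SP and KLF factors, was present at 3.21% of the members and at 12.5% of the promoter sites. A match is a string of letters in the reference and not a binding site.

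Brd3 peaks were the first readout compared between genotypes. Every member has a Brd3 peak in both WT libraries by its definition, so the DKO values are given as a description with no test. A Brd3 peak overlapped 1529 members in DKO replicate 1 (17.2%) and 2052 in DKO replicate 2 (23.1%), a mean of 20.2% ± 4.17 (SD, n = 2). That mean depends on how sites and overlaps are defined. It was 12.0% and 13.0% for sites taken from WT replicate 2 or WT replicate 1 alone, 9.23% when 50% of the site had to be covered, and 36.75% when a peak within 1000 bp was enough. Both DKO libraries had a peak at 1035 members (11.7%), 1 of them at 1511 (17.0%) and neither at 6320 (71.3%). Over all 22795 shared Brd3 sites, 54.2% had a peak in neither DKO library, and at distal sites with p300 and promoter sites it was 49.4% and 41.8%. The share of DKO Brd3 peaks was lowest at members, and the same order of the classes was found in WT libraries when fewer peaks were counted, as given below with lists of equal length.

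**Figure D1:**
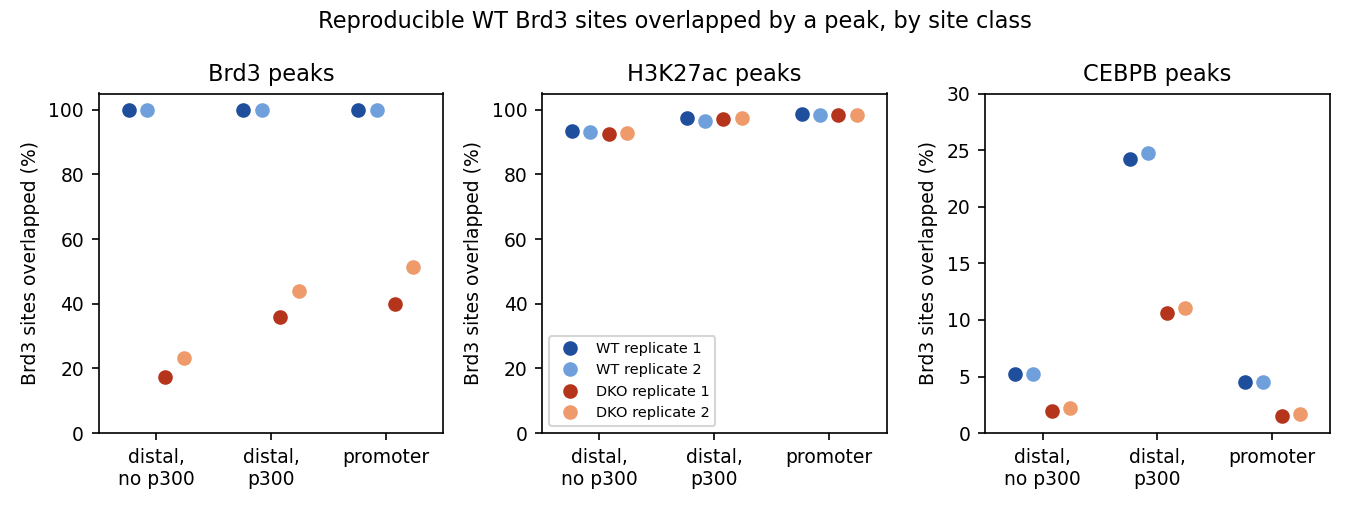
Percentage of the Brd3 sites of each class (horizontal axis) overlapped by a Brd3, H3K27ac or CEBPB peak in each of the 4 MEF libraries, 1 point per library, with a separate vertical scale for CEBPB. Brd3 points of WT libraries are at 100% by definition, the DKO Brd3 points of the distal sites without p300 are the lowest of the 3 classes, the H3K27ac points of the genotypes lie together, and the DKO CEBPB points lie below the WT points in every class.

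How far libraries of the same genotype differ can be read from peaks that were not required to be shared. Of 14577 distal Brd3 peaks without p300 in WT replicate 1, WT replicate 2 overlapped 60.8%, DKO replicate 1 10.98% and DKO replicate 2 15.1%. In the other direction, of 3400 distal Brd3 peaks without a DKO p300 peak in DKO replicate 1, DKO replicate 2 overlapped 62.6% and the WT replicates 90.8% and 91.4%. Of 4308 such peaks in DKO replicate 2, DKO replicate 1 overlapped 45.5% and the WT replicates 89.1% and 89.6%. The WT Brd3 lists hold 31404 and 33072 peaks and the DKO lists 8970 and 11549, and the shares in each direction move with these lengths.

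The DKO Brd3 lists are shorter and their libraries less deep, so the shares were also computed at matched depth and at matched list length. When the reads and background at the members were scaled to the depth of a DKO library, 6529 members (73.6%) would still pass the lowest p of DKO replicate 1 from both WT libraries, and 8100 (91.4%) that of DKO replicate 2. Of these, 21.7% and 24.8% had a Brd3 peak in the library concerned, so that restricting to them changed the mean share from 20.2% to 23.2%. With each Brd3 list cut to its 8970 top peaks, the length of the shortest list, the members overlapped were 1768 and 2283 in the WT replicates against 1529 and 1478 in DKO cells. As shares these are 19.9% and 25.8% for WT and 17.2% and 16.7% for DKO. At distal sites with p300 they were 44.8% and 49.2% against 36.01% and 35.1%, and at promoter sites 51.4% and 53.2% against 39.8% and 44.6%. The members were thus the lowest class in WT as well as in DKO libraries at this length. Since the rule takes sites of every class from WT Brd3 peaks, the comparison of genotypes leans towards WT, and no difference between them is read from these numbers. The part of list length in the DKO shares was not tested.

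Whether a member had a Brd3 peak in DKO cells followed its strength in WT cells. Members were ranked by their mean WT −log10 p and split into 10 classes of about 887 each. In the weakest class 4.74% and 4.17% had a Brd3 peak in DKO replicates 1 and 2. In class 5 it was 7.11% and 10.7%, in class 8 20.2% and 30.4%, and in the strongest class 65.5% and 75.4%. When the members with H3K27ac in both WT libraries were ranked by their mean WT H3K27ac fold enrichment instead, the shares went from 6.55% and 10.01% in the lowest class to 35.6% and 45.2% in the highest. Median WT Brd3 fold enrichment also went from 4.82 to 5.92 over these H3K27ac classes, so that both rankings share part of their order. By distance to a start, the shares were 18.9% and 25.9% between 1 and 2.5 kb, and 13.8% and 18.4% beyond 100 kb.

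**Figure D2:**
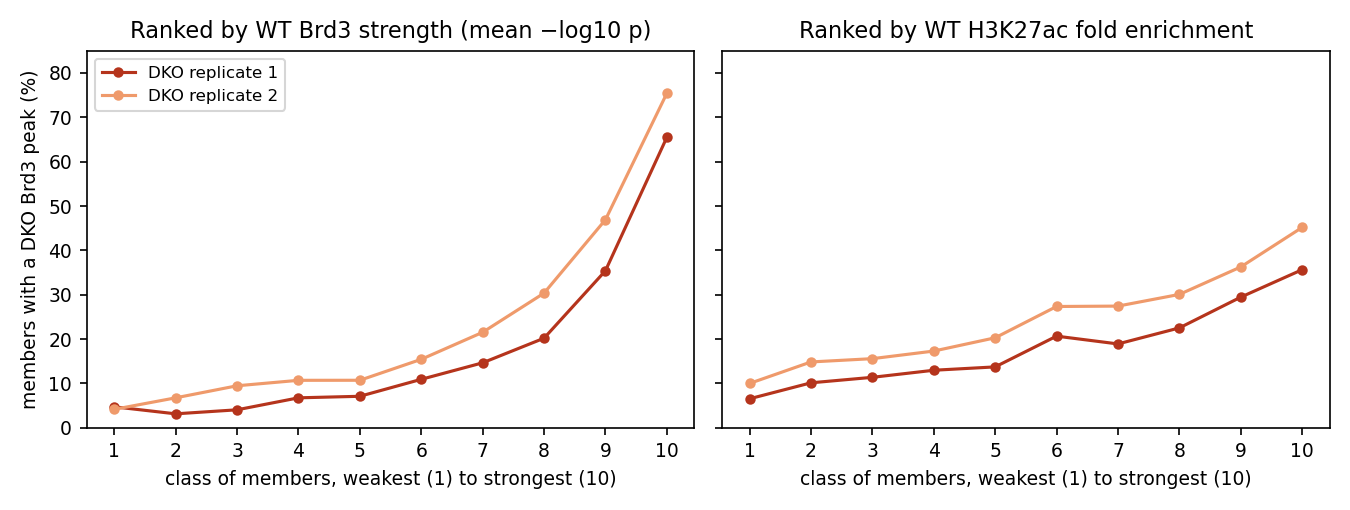
Percentage of members with a Brd3 peak in each DKO library (vertical axis) in 10 classes of equal size, ranked by mean WT Brd3 −log10 p (left) or by mean WT H3K27ac fold enrichment (right), 1 point per class and library. With Brd3 strength the share is highest in class 10, at 65.5% and 75.4%, and with H3K27ac it reaches 35.6% and 45.2%.

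The strongest member kept in DKO cells lay on chromosome 11 of mm9 from 6427300 to 6428832, between genes and 6339 bp from the start of Myo1g, which encodes an unconventional myosin. Its Brd3 fold enrichment was 32.7 and 32.0 in the WT replicates against 15.4 and 19.0 in DKO cells. The member near Zfp518a, a zinc finger gene, had 23.5 and 24.8, against 19.1 and 16.3 in DKO cells. The member upstream of Snhg11, a small nucleolar RNA host gene, had 17.8 and 14.99 against 13.7 and 16.01. In the first of these both DKO values lay well below both WT values, whereas near Snhg11 the ranges overlapped. The members were picked by their WT Brd3 values, so this is a description only. The other 2 of the 5, near Gm9953 and Spen, had 19.3 and 21.9 against 9.63 and 9.04, and 23.6 and 20.6 against 13.6 and 12.2. H3K27ac fold enrichment at these 5 members lay between 13.6 and 33.7 in every library and changed by −0.25 to 0.10 on the log2 scale, none past the limma threshold.

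Among the members with no DKO Brd3 peak, ranking by the mean −log10 q of both WT replicates picked sites in Cyth3, Dnm3 and Zc3h4 and near Spen and Gm10068. Their own peak in WT replicate 1 was moderate, with fold enrichment between 3.73 and 5.27, while WT replicate 2 gave 17.8 to 26.3. In all 5 cases the value of WT replicate 2 came from a wider peak whose summit lay outside the member. The member near Spen, for example, shared its WT replicate 2 peak with the member near Spen that was kept in both DKO libraries. Over all members, 6318 (71.3%) held the summit of the WT replicate 2 peak they overlapped, and 1205 (13.6%) shared that peak with another member. Among the 6318, 20.5% and 26.7% had a Brd3 peak in DKO replicates 1 and 2, a little more than among all members.

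Ranked by WT replicate 1 alone, the members with no DKO peak were led by one 16494 bp from the start of Wnt10a, a gene for a secreted Wnt ligand, with Brd3 fold enrichment of 16.3 and 7.30 in the WT replicates. It was followed by one on chromosome 13, 434575 bp from the nearest protein-coding start, that of Gm6404. This member had 10.8 and 9.60 and no H3K27ac peak in any of the 4 libraries. The members near 1700016C15Rik, near Klf4, which encodes a zinc finger transcription factor, and near Tubd1, a tubulin gene, had fold enrichment between 11.2 and 12.5 in WT replicate 1 and between 4.50 and 14.1 in WT replicate 2. H3K27ac at the member near 1700016C15Rik was 16.4 and 16.7 in the WT replicates against 9.84 and 8.59 in DKO cells, lower by 0.85 on the log2 scale (SE 0.22, adjusted p = 0.0405 from limma, and 0.0624 with each library centred on its median). Near Wnt10a and Klf4 H3K27ac changed by −0.48 and −0.25 (adjusted p = 0.225 and 0.539 from limma). The merged site near Tubd1, which is wider than the member, changed by 0.28 (adjusted p = 0.476 from limma).

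H3K27ac was measured with its own antibody and took no part in the rule. An H3K27ac peak overlapped 8279 and 8248 members in the WT replicates, against 8188 and 8231 in DKO replicates. The shares were 93.2% ± 0.247 for WT and 92.6% ± 0.343 for DKO (SD, n = 2). The log2 change of the number of members overlapped was −0.01 (SE 0.03, adjusted p = 0.833 from limma, fitted over 29 numbers of sites per antibody and class, of which 69.0% passed the 0.05 threshold in either direction). The change at distal sites with p300 was 0.00 and at promoter sites −0.00, and the difference between members and either class was at most 0.01 in size (adjusted p = 0.632 and 0.771 from limma). Against the whole H3K27ac list, which was shorter in DKO cells, the members' number was higher by 0.12 on the log2 scale (SE 0.02, adjusted p = 0.0396 from limma). That call was lost with each replicate left out in turn (adjusted p between 0.116 and 0.190 from limma), and at equal list length the difference was 0.00.

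Site by site, 7758 members (87.5%) had an H3K27ac peak in all 4 libraries and 266 in none. A peak in both WT and neither DKO library was found at 115 members (1.30%), and the reverse at 86 (0.970%). Over all shared Brd3 sites these shares were 0.671% and 0.5%, and over all H3K27ac sites of MEFs 5.83% and 4.4%. Of 8083 members with a peak in both WT libraries 1.42% had none in DKO cells, against 0.706% of all shared Brd3 sites and 11.2% of all H3K27ac sites with a peak in both WT libraries. The 6320 members that had lost their Brd3 peak in both DKO libraries had H3K27ac in all 4 libraries in 84.5% of cases, and 104 of them (1.65%) had it in WT libraries only. Of the 1035 with Brd3 in both DKO libraries 96.3% had H3K27ac in all 4, and 1 had it in WT libraries only.

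The level of H3K27ac was also close between genotypes. At members with a peak, the median fold enrichment was 11.45 and 10.99 in the WT replicates against 11.3 and 11.2 in DKO cells. At members with no DKO Brd3 peak it was 10.5 and 10.1 against 10.3 and 10.2, and at members with Brd3 in both DKO libraries 15.68 and 15.63 against 15.99 and 15.58. The ranges of the genotypes overlapped in all 3 cases. Members without a DKO Brd3 peak had less H3K27ac in every library, WT included.

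Enrichment was tested at H3K27ac sites called in all 4 libraries, 42234 in all, of which 6142 overlap members and hold 8079 of them (91.1%). The remaining members had no such site and are not in this test. At the sites of members, 189 (3.08%) were lower and 114 (1.86%) higher in DKO cells by limma at an adjusted p of 0.05, beside 3.47% and 1.68% of all sites tested. These counts were 369 and 249 with a trended prior variance and 336 and 208 with a replicate block, and without DKO replicate 1 the higher calls numbered 68. The median log2 change at the sites of members was −0.05, and that of all sites −0.08. With each library centred on its median over all sites, 110 were lower and 147 higher, beside 2.02% and 2.16% of all sites, and the median at members was 0.03, so that which direction holds more calls turned with this choice. At members with no DKO Brd3 peak the median change was −0.05 over 4650 sites and at members with Brd3 in both DKO libraries −0.03 over 936 sites. In the first group 152 sites (3.27%) were lower and 84 (1.81%) higher, and in the second 12 (1.28%) were lower and 14 (1.496%) higher. The difference between these groups was not tested.

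**Figure D3:**
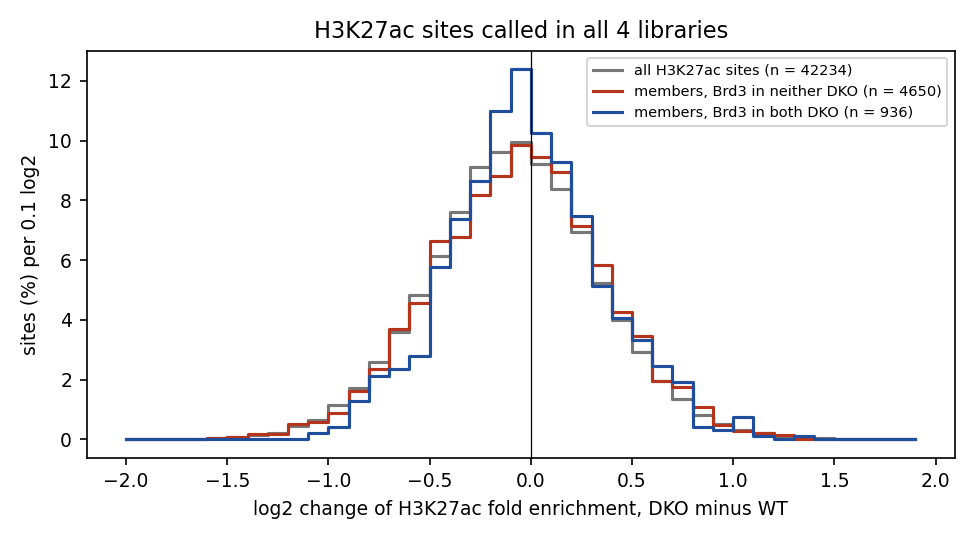
Distribution of the log2 change (DKO minus WT) of H3K27ac fold enrichment at sites called in all 4 libraries, in bins of 0.1 with the outermost bins holding all values beyond, for all 42234 sites, for the 4650 at members with no DKO Brd3 peak and for the 936 at members with a Brd3 peak in both DKO libraries. The 3 curves lie over each other around medians of −0.08, −0.05 and −0.03.

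Among the members with the most H3K27ac in WT cells was one in an exon of 0610009L18Rik (60.6 and 56.5 in WT, 16.3 and 48.4 in DKO libraries). Another was in an intron of Zc3h4 (50.7 and 50.4, 50.8 and 43.1). The test took the highest peak of the whole H3K27ac site, which at both was wider than the member and reached over the gene's start. The tested change at 0610009L18Rik, −0.43 on the log2 scale, is therefore not that of the values given. Neither site passed (adjusted p = 0.267 and 0.807 from limma). The largest loss of H3K27ac at a member was in an intron of Tprg on chromosome 16, from 25385060 to 25385532, where fold enrichment was 17.2 and 12.6 in the WT replicates against 3.06 and 3.09 in DKO cells, which changed by −2.26 on the log2 scale (SE 0.23, adjusted p = 0.00172 from limma). H3K27ac fell by 1.53 on the log2 scale near Calm2, a calmodulin gene, from 10.4 and 13.5 to 3.94 and 4.29. It fell by 1.52 in an intron of Pde4d, a cAMP phosphodiesterase, from 16.01 and 15.2 to 5.90 and 5.02 (adjusted p = 0.00857 from limma for both). None of these 3 members had a Brd3 peak in a DKO library, as was the case for 71.3% of all members. The largest gain was 3588 bp from the start of Sertad1, a transcriptional regulator that binds cyclin-dependent kinase 4, with 8.57 and 7.29 in the WT replicates against 21.8 and 22.4 in DKO cells, which is 1.48 higher on the log2 scale (SE 0.22, adjusted p = 0.00857 from limma). An intron of Rnf150, a RING finger gene, gained 1.48 (5.09 and 7.01 against 16.7 and 16.6) and a site 125258 bp from Tars, a tRNA synthetase, 1.38 (7.22 and 5.16 against 18.6 and 13.6). In all 6 the WT and DKO values did not overlap, and all 6 passed also with centred libraries. At the 3 members with a gain, Brd3 is given as a description, since the rule required a WT Brd3 peak. Near Tars its fold enrichment was 10.5 and 11.1 in the WT replicates against 4.63 and 4.40 in DKO cells, near Sertad1 only DKO replicate 1 had a Brd3 peak, and in Rnf150 neither had.

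The strongest H3K27ac summit at a member lay a median of 173 and 162 bp from the Brd3 summit in the WT replicates, against 176 and 187 bp in DKO replicates. At distal sites with p300 it was 133 and 129 bp against 145 and 151 bp, and at promoter sites 86 and 87 bp against 90 and 90 bp. In each class both DKO medians were above both WT medians, and this was not tested. The Brd3 summit lay inside an H3K27ac peak at 88.8% and 87.4% of all members for WT, against 87.6% and 88.5% for DKO. At members with no DKO Brd3 peak these shares were 86.3% and 84.8% against 84.9% and 86.0%, with overlap of the genotypes.

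**Figure D4:**
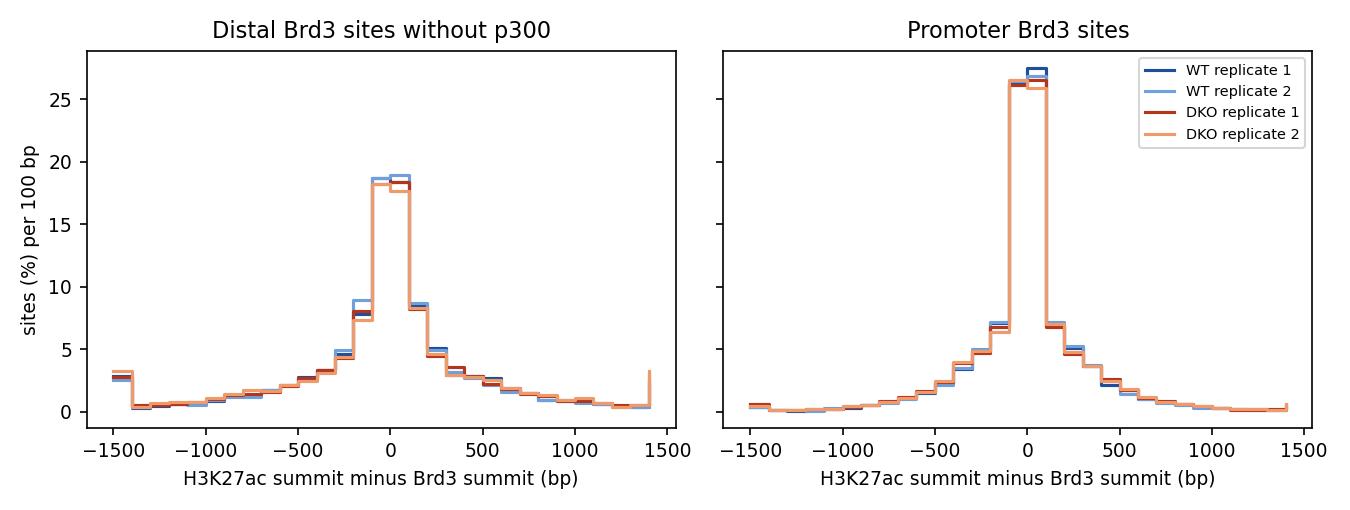
Distance from the Brd3 summit to the strongest overlapping H3K27ac summit (bp, in bins of 100, with the outermost bins holding all values beyond) as a percentage of the sites with an H3K27ac peak, 1 line per library, for the distal sites without p300 and for promoter sites. Within 100 bp of the Brd3 summit lie 36.1% to 37.8% of the summits at distal sites without p300.

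CEBPB peaks lay at few members, and at fewer in DKO cells, where the whole CEBPB list was also shorter (14197 and 14692 peaks in the WT replicates against 4886 and 5328). They overlapped 462 and 460 members in the WT replicates, against 177 and 196 in DKO replicates, or 5.20% ± 0.0159 for WT and 2.104% ± 0.1515 for DKO (SD, n = 2). The log2 change was −1.30 (SE 0.07, adjusted p = 0.00135 from limma). This was a smaller fall than that of the whole list, by 0.20 (SE 0.03, adjusted p = 0.0396 from limma), a call lost with each replicate left out in turn (adjusted p between 0.0582 and 0.184 from limma) and turned in direction at equal list length, where the list cannot change. With all CEBPB lists cut to the length of the shortest it was −0.25, with 213 and 210 members in the WT replicates against 177 and 178 in DKO cells, and it still passed (adjusted p at most 0.0237 in any alternative with all libraries). CEBPB is more frequent where p300 is present. At distal sites with p300 it overlapped 24.5% ± 0.403 of them in WT libraries and 10.8% ± 0.349 in DKO libraries, with a log2 change of −1.17. The change at members was not shown to differ from this one (difference −0.13, SE 0.04, adjusted p = 0.0981 from limma, 1 of 27 such differences of which 33.3% passed). That difference depended on the setting. It passed with equal list lengths (−0.18, adjusted p = 0.0391 from limma) and for members with no p300 peak within 1000 bp (−0.17, adjusted p = 0.0166 from limma), missed the threshold with each replicate left out in turn (−0.17 to −0.09, adjusted p between 0.139 and 0.292 from limma), and was 0.02 with 50% of the site covered (adjusted p = 0.802 from limma). The change at members was smaller in size than that at promoter sites, by 0.18 (SE 0.02, adjusted p = 0.0396 from limma), a call lost with each replicate left out in turn (adjusted p between 0.0716 and 0.184 from limma) and at equal list length, where the difference was 0.06 (adjusted p = 0.431 from limma).

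A CEBPB peak in both WT and neither DKO library was found at 199 members (2.24%), against 3.08% of all shared Brd3 sites and 39.3% of all CEBPB sites of MEFs. The reverse was found at 3 members (0.0338%), against 0.0219% and 0.482%. Of the 397 members with CEBPB in both WT libraries, 50.1% had it in neither DKO library, beside 50% of shared Brd3 sites and 55.2% of all CEBPB sites with a peak in both WT libraries. CEBPB was lost from both DKO libraries at 57.4% of 61 members with Brd3 in both DKO libraries. The share was 62.1% of 66 members with Brd3 in 1 DKO library and 45.6% of 270 members with Brd3 in neither. The differences between these groups were not tested.

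At CEBPB sites called in all 4 libraries, 4193 in all, the fold enrichment of CEBPB was lower in DKO cells by a median of 0.68 on the log2 scale, and the change at members is read against that shift. The 181 such sites at members changed by a median of −0.84, with 128 (70.7%) lower and 7 (3.87%) higher by limma at an adjusted p of 0.05, beside 67.4% and 4.44% of all sites tested. With each library centred on its median, 48 were lower and 48 higher, beside 22.5% and 27.9%, and the median at members was −0.10. The share of lower calls at members was thus close to the background with either scaling.

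The 3 members with the strongest CEBPB were near Gm11084, near Arntl, which encodes the circadian transcription factor BMAL1, and in an intron of Cdhr3, a cadherin-related gene. CEBPB fold enrichment near Gm11084 was 56.6 and 67.1 in the WT replicates against 19.3 and 28.1 in DKO cells. Near Arntl it was 46.7 and 49.4 against 23.7 and 33.9, and in Cdhr3 46.5 and 47.6 against 28.7 and 36.1. In all 3 both DKO values were below both WT values, beside the median fall of 0.68 on the log2 scale over all 4193 CEBPB sites. None had a DKO Brd3 peak, as for 71.3% of all members, and H3K27ac did not pass the test (log2 changes of 0.39, 0.45 and −0.04). The window of 101 bp around the CEBPB summit near Gm11084 in WT replicate 1 is shown with TTGCNNAA in capitals.
Gm11084, chr2:72885196-72885296: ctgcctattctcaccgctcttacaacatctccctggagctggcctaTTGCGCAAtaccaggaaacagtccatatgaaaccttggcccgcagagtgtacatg
The same windows near Arntl and in Cdhr3 hold no match to these letters. Over the CEBPB summits at members, the motif was present at 36.5% of 197 peaks lost from both DKO libraries and at 46.2% of 156 peaks kept in both, beside 51.1% of all CEBPB peaks of WT replicate 1. The lost peaks were weaker in WT replicate 1, with a median fold enrichment of 7.28 against 15.4.

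p300, absent from all members in WT cells by the rule, overlapped 72 and 86 of them in the DKO replicates, or 0.812% and 0.970%. These p300 values are given without a test. H3K27me3 overlapped 1 member in DKO replicate 1 and 0 in the other 3 libraries, and histone H1 overlapped 0 in each. The H3K27me3 lists held only 117 to 553 peaks.

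Members were counted near genes that fibroblasts are known for. The share of all annotated genes with a member nearby was not computed, so the numbers of genes are a description. The lists of genes below were drawn up with earlier results known, and a member was counted for a gene when that gene had the nearest start, within 100 kb. For 34 mesenchymal transcription factors, 33 of them in the annotation, 118 members were found near 24 genes, of which 74.6% had a Brd3 peak in neither DKO library. For 36 genes of the extracellular matrix 169 members were found near 26 genes (70.4% in neither), and for 21 genes of the actin cytoskeleton 96 members near 14 genes (71.9% in neither). For 19 genes of the TGF-beta and YAP response 122 members were found near 16 genes (66.4% in neither), and for 15 AP-1 and immediate early genes 40 members near 11 genes (87.5% in neither). The share over all members was 71.3%, and the lists were not tested against it. In WT replicates 1 and 2 and DKO replicates 1 and 2 in that order, H3K27ac was present at 116, 116, 113 and 115 of the 118 members near mesenchymal factors and at 160, 161, 159 and 162 of the 169 near matrix genes. It was present at 94, 94, 95 and 96 of the 96 near cytoskeletal genes, at 113, 113, 115 and 115 of the 122 near TGF-beta and YAP targets, and at 39, 40, 37 and 39 of the 40 near immediate early genes. Over all members the share was 93.2% for WT and 92.6% for DKO, and the lists were not tested against it. The 18 members near Ctgf, a matricellular target of YAP, had H3K27ac at 12, 13, 12 and 13.

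Prrx1, a homeobox factor of limb mesenchyme, had a member in its intron with Brd3 fold enrichment of 9.65 and 14.3 in the WT replicates against 3.54 and 4.81 in DKO cells. Its H3K27ac was 33.9 and 27.1 against 37.6 and 37.4. The H3K27ac site there reached over the start of Prrx1, so the summits with these values need not lie in the member. The member near Id3, an inhibitor of basic helix-loop-helix factors, had Brd3 at 11.53 and 11.9 against 9.28 and 7.30. The member nearest to Nfia, a nuclear factor I gene, had Brd3 at 10.2 and 11.4 against 4.95 and 4.61. H3K27ac there was 15.6 and 12.7 against 7.54 and 8.75, a change of −0.80 on the log2 scale, above the threshold (SE 0.23, adjusted p = 0.0557 from limma). For all 3 factors each DKO Brd3 value was below both WT values. These members were chosen for strong WT Brd3 peaks and the DKO Brd3 libraries were less deep, so no difference between genotypes is read from this.

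Among the matrix genes, Thbs1, which encodes thrombospondin 1, had 21 members, of which 15 had a Brd3 peak in neither DKO library. The strongest, 3234 bp from its start, had Brd3 at 6.57 and 14.8 in the WT replicates, 4.92 in DKO replicate 1 and no peak in DKO replicate 2. Its summit window, shown with TGANTCA in capitals, is the one among the windows of the 15 list members named here to hold a match within 50 bp of the summit.
Thbs1, chr2:117934173-117934273: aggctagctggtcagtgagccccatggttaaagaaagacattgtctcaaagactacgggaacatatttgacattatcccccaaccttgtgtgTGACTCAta
In an exon of Loxl1, a lysyl oxidase that crosslinks elastin, Brd3 was 10.7 and 12.1 against 6.86 and 8.004. The member assigned to Postn, which encodes periostin, had 9.03 and 13.1 in the WT replicates, no peak in DKO replicate 1 and 4.52 in DKO replicate 2. Col1a1, a chain of type I collagen, had 19 members, of which 11 had no DKO Brd3 peak, and H3K27ac was present at all 19 in every library.

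Of the immediate early genes, the member 50351 bp from the start of Myc kept its Brd3 peak, with 8.995 and 6.79 in the WT replicates against 8.54 and 6.76 in DKO cells, which overlap in range. Of the 15 members named from the lists, those near Myc, Atf3 and Cyr61 had another annotated start, not of a protein-coding transcript, within 1000 bp. In Fosl2, a FOS family gene, the values were 7.06 and 8.55 with no peak in DKO replicate 1 and 5.35 in DKO replicate 2. The member near Atf3, a stress-induced factor, had 8.58 and 8.94 and no DKO peak. All 8 members near Klf6 lacked a DKO Brd3 peak. Among TGF-beta and YAP targets, the member 1133 bp from the start of Cyr61 had 13.997 and 11.1 against 8.10 and 8.38, that near Tgfb2 10.4 and 11.3 and no DKO peak, and that downstream of Ctgf 9.28 and 7.80 against 8.20 and 9.60. Of the genes for the cytoskeleton, Myh9, a non-muscle myosin heavy chain, had 11.1 and 11.9 against 7.08 and 8.09, Lmna, which encodes lamins A and C, 5.80 and 12.9 and no DKO peak, and Actn4, an actin crosslinker, 5.92 and 10.8 against 5.10 and 3.84. H3K27ac was called in all 4 libraries at each of these 15 members, and of the 14 that could be tested as 1 site, none passed the limma threshold. At 5 of the 15, those of Prrx1, Thbs1, Postn, Lmna and Actn4, the Brd3 value of WT replicate 2 came from a peak with its summit outside the member. H3K27ac values are likewise those of the highest overlapping peak, whose summit may lie outside the member.

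**Figure D5:**
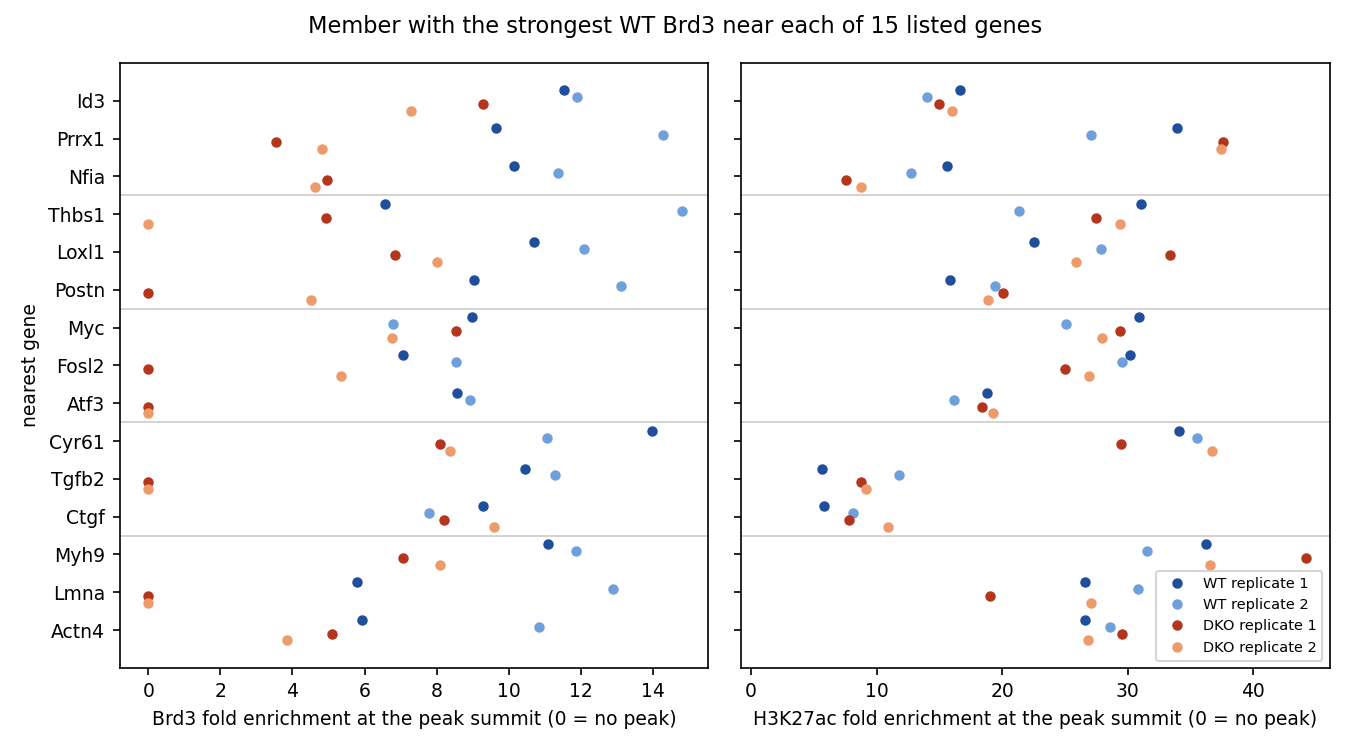
Brd3 (left) and H3K27ac (right) fold enrichment at the summit in each of the 4 libraries for the member with the strongest WT Brd3 near each of 15 listed genes (vertical axis, grouped in threes by list), 1 point per library, with 0 standing for no peak. Brd3 points of the DKO libraries lie at 0 or below the WT points at most genes, with Myc and Ctgf as overlaps, while H3K27ac points of the genotypes are intermixed at most genes.

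Members often lay close together. Joined where gaps were at most 10000 bp, they formed 4919 stretches, of which 3093 held 1 member and 273 held 5 or more, together 1913 members (21.6%). The stretch with the most members ran over 58363 bp of chromosome 2, from 117685666 to 117744028, with Thbs1 as the nearest start for all 25 of its members, none of them within the 100 kb used for the list above. Of these, 5 and 6 had a Brd3 peak in the DKO replicates, while H3K27ac was present at 20 and 23 in the WT replicates against 19 and 20 in DKO cells. A stretch of 22 members in the Hoxb cluster had 5 and 7 with DKO Brd3 and all 22 with H3K27ac in every library. A stretch of 19 members with Rasgrp1 as the nearest gene had 6 and 11 with DKO Brd3, and H3K27ac at 18 and 18 in the WT replicates against 17 and 19 in DKO cells. One of 18 members around Col1a1 had 7 and 7 with DKO Brd3, and H3K27ac at all 18. A stretch of 16 members at Ctgf had 2 and 6, with H3K27ac at 11 and 12 in the WT replicates against 11 and 11 in DKO cells. Over all members the shares were 17.2% and 23.1% for DKO Brd3, and 93.2% (WT) and 92.6% (DKO) for H3K27ac, and the stretches, picked for their size, were not tested against them.

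The same positions were also overlapped with the peak lists of ES cells and B cells, in which Brd3 was not measured. Most of these lists themselves changed in length between genotypes, and the numbers below move with them. Nanog peaks of ES cells overlapped 684 and 726 members in the WT replicates against 927 and 968 in DKO cells (log2 change 0.43, SE 0.05, adjusted p = 0.00762 from limma). Oct4 overlapped 77 and 83 against 221 and 277 (1.62, SE 0.14, adjusted p = 0.00481 from limma). Sox2 overlapped 84 and 70 against 156 and 164 (1.05, SE 0.11, adjusted p = 0.00664 from limma). Ikaros peaks of B cells overlapped 334 and 393 against 200 and 191 (−0.89, SE 0.10, adjusted p = 0.0076 from limma), and Ets1 155 and 151 against 30 and 33 (−2.25, SE 0.06, adjusted p = 0.000759 from limma). CTCF, which binds insulators, overlapped 670 and 688 against 706 and 717 in ES cells (0.07, SE 0.03, adjusted p = 0.162 from limma). The whole lists held 52307 and 53524 peaks against 62697 and 64486 for Nanog, 11140 and 12627 against 26742 and 30864 for Oct4, and 10324 and 10222 against 16174 and 17144 for Sox2. Those of Ikaros held 9102 and 10969 against 5032 and 4838, and those of Ets1 4524 and 4561 against 1220 and 1098. Each list thus changed in the same direction as the number of members overlapped. With lists of equal length, the changes at members were 0.13 for Nanog, 0.06 for Oct4, 0.15 for Sox2, −0.24 for Ikaros and 0.17 for Ets1, and none of them passed. Without DKO replicate 2, Nanog (0.40), Ikaros (−0.85) and Sox2 (1.02) also missed the threshold, with adjusted p of 0.0568, 0.0568 and 0.0561 from limma.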

How the data were processed

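Per the submitters, adapters were cut with cutadapt 1.16, reads were aligned to mm9 by BWA, duplicate and blacklisted reads were handled before calling, and each library had its own peak list from MACS2 2.1.1.20160309. At each summit the lists hold the fold enrichment (a ratio), −log10 p and −log10 q that the authors deposited. All lists were called at a q of at most 0.01. Of 16 antibodies, Brd3 and p300 defined the classes and were described only, and the other 14 were considered for the fits. H3K27me3, histone H1 and Oct2 overlapped too few sites of every class to enter the fits.

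Peaks were overlapped by 1 bp or more in Python 3.11.15 with numpy 2.4.6 and pandas 2.3.3, and sequences read with pysam 0.24.0. Numbers of sites (log2 of number plus 1, mean of at least 20) and log2 fold enrichment of merged sites called in all 4 libraries were compared with limma 3.58.1 in R 4.3.3, two-sided, with Benjamini-Hochberg adjustment over all features and a threshold of 0.05. The limma fits were tested on simulated data. The fold enrichment at a site is that of its highest peak, so members in 1 wide peak share a value. Pileups were solved from fold enrichment and p with a tolerance of 0.0005.

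Named sites were the 5 strongest Brd3 members kept and the 5 lost in DKO cells by mean WT −log10 q, the 3 highest for WT H3K27ac and CEBPB, the 3 largest H3K27ac losses and gains, and up to 3 genes per list, with 5 lost members ranked by WT replicate 1 and the stretches of members added after the values were seen. A site that this rule names is not reported here. Members and lists were chosen with earlier results of these data known. Replicate numbers were not found to pair the samples.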

Additional observations from a re-analysis of the deposited data

Results flagged for a closer look

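These are the differences between the members and another set of sites in the DKO minus WT log2 change that passed the limma threshold, each with an adjusted p of 0.0396, out of 27 tested. They rest on 2 replicates per genotype, and the number that passed fell to between 0 and 3 when 1 replicate was left out. In MEFs, H3K27ac at members differed from the whole H3K27ac list by 0.12 (SE 0.02), and by 0.00 with equal numbers of top peaks (adjusted p = 0.887 from limma). CEBPB at members differed from promoter sites by 0.18 (SE 0.02) and from the whole CEBPB list by 0.20 (SE 0.03). With equal numbers of top peaks the first was 0.06 (adjusted p = 0.431 from limma) and the second turned to −0.25 (adjusted p = 0.0217 from limma). The whole list cannot change in number at that setting.

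In ES cells, Nanog differed from distal sites with p300 by 0.17 (SE 0.03), from promoter sites by −0.62 (SE 0.11) and from the whole list by 0.16 (SE 0.03). Oct4 differed from distal sites with p300 by 0.66 (SE 0.11) and from the whole list by 0.34 (SE 0.06). In B cells, Ikaros differed from the whole list by 0.13 (SE 0.02). With equal numbers of top peaks, where the difference from the whole list is the change at members itself, it was 0.13 for Nanog and 0.06 for Oct4, and that of Ikaros turned to −0.24. With groups of 2, no sample could be examined as an outlier within its group.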

How the results depend on the processing

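The log2 change of members overlapped stayed on its side of the threshold for H3K27ac (−0.01 to 0.00) and CEBPB (−1.38 to −0.25) in every alternative run. Of 9 antibodies 6 passed, but 1 with equal numbers of top peaks, where Ets1 turned to 0.17, and 3 to 6 with a replicate left out (3 without DKO replicate 2). Of the 27 class differences 9 passed, but 4 with equal numbers of top peaks (CEBPB against its whole list turned to −0.25), 1 with 50% of the site covered and 0 to 3 with a replicate left out. The replicate block, for which replicate numbers correlated at −0.38, 0.00635 and 0.00137 in the 3 kinds of fit, left 0 class differences and gave 336 lower and 208 higher H3K27ac sites, and it changed no call of the numbers overlapped. With crossed numbers, tried after the values were seen, 1 class difference passed. H3K27ac sites lower and higher numbered 369 and 249 with a trended variance and 140 to 182 and 68 to 125 with a replicate left out (68 higher without DKO replicate 1). Centred libraries gave 110 lower, and a median log2 change of 0.0306 in place of −0.05. CEBPB sites were 48 lower and 48 higher with centred libraries, and 118 to 128 and 3 to 4 with a replicate left out.

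The share of members with CEBPB changed by −3.10 percentage points, or by −0.3835 (equal numbers), −0.5865 (50% covered), −3.44 (no p300 within 1000 bp) and −10.7 (peaks within 1000 bp). For H3K27ac the change was −0.609, and 0.152 with equal numbers and −0.209 with 50% covered. The mean share of members with DKO Brd3, 20.2%, was 9.23% with 50% covered and 36.75% with peaks within 1000 bp, and 12.0% to 23.1% with a replicate left out, 12.0% without WT replicate 1 and 13.0% without WT replicate 2. The causes were not tested. Depth of the CEBPB libraries is unknown, and a peak missing from a list may lie just under its threshold.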
